A study of Saccharomyces cerevisiae with 24 samples.

Results

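The small subunit processome is represented here by 40 budding yeast genes out of the 5912 genes quantified. With earlier results of these data known, the members were chosen by name for their proteins' known part in early small ribosomal subunit assembly. They fall into 6 groups by role, with 7 UTP-A subunits, 6 UTP-B subunits, 4 proteins of the U3 snoRNP and the box C/D core, 4 proteins of the Mpp10 complex, 5 enzymes and 14 other assembly factors. Their mRNAs were followed by RNA sequencing in haploid BY4741 MATa cells, a laboratory strain that lacks working copies of several nutritional genes, grown in rich medium (YPD). The 4 strains were wild type, gcn2Δ (marked with KAN), gcn4Δ (KAN) and mbf1Δ (NAT), and each was either left untreated or exposed to 0.1% methyl methanesulfonate (MMS), an agent that alkylates DNA and RNA, lasting 1 h. Each of the 8 groups had 3 libraries that the labels call biological replicates, 24 in all, and p-values below measure the spread between such libraries. Whether a deletion strain was a single isolate is not given in the sources used here. The comparisons ask how the MMS response depends on Gcn2, the kinase that senses stalled translation, on Gcn4, the transcription factor it induces, and on Mbf1, a coactivator of Gcn4 that also acts on collided ribosomes.

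The processome is a very large particle that forms on the growing ribosomal RNA transcript in the nucleolus. UTP-A binds the start of the transcript first, UTP-B and the U3 snoRNP follow, U3 RNA pairs with the precursor to hold it open for folding and cleavage, and the Mpp10 complex and many single factors then join until helicases and GTPases drive the particle apart. The genes belong to the ribosome biogenesis regulon, which rapidly growing yeast expresses strongly and stressed yeast represses, and many of them carry the PAC and RRPE promoter elements, which are bound by the repressors Dot6 and Tod6 and by Stb3.

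Library totals ranged from 13518147 to 28366559 counts, and no member had fewer than 31 counts in any library. Each deleted gene was depleted where its label says: in its own strain GCN2 had 0.131 to 0.407 TPM (Salmon's length-scaled relative abundance) against 12 to 20.9 in wild type, GCN4 had 28 to 44.8 against 684 to 912, and MBF1 had 0.171 to 3.17 against 259 to 1170. All 5 MATa genes examined were present (at least 1281 counts in each library), while of 3 genes specific to the opposite mating type MFALPHA1 had 1 to 11 counts, MFALPHA2 30 to 248 and STE3 40 to 325. Of the nutritional genes that BY4741 lacks, URA3 and MET17 had 0 counts in every library and LEU2 had 1 to 36, but HIS3, where the strain carries a partial deletion, had 665 to 3157. The share of counts in 5 rows of the ribosomal RNA locus was far lower in gcn4Δ (mean 1.28% untreated and 0.49% after MMS, n = 3 each) than in wild type (14.4% and 15.4%), gcn2Δ (7.05% and 12.9%) or mbf1Δ (11.5% and 14.6%). A pair of libraries stood apart from the others of their group. Over 5600 genes outside the ribosomal RNA locus, the mean squared difference in units of counting noise (chi-square per gene) was 46.6 and 61 between untreated wild type replicate 3 and the other replicates, which differed by 5.64, and 88.2 and 94.5 between treated mbf1Δ replicate 1 and the others, which differed by 4.78. Treated gcn2Δ replicate 3 was less clearly apart (55.5 and 28.9, against 15.4). The deposited length of each member was its annotated length plus 400 bases. If that is 200 bases on each side, 36 of the 40 gene models reach into a neighbour's model, 15 of them over more than 10% of their length and KRR1 the most (24.8%). No member's coding region overlapped another, and a search for near-identical copies of the members found none. In bulk RNA, fewer cells that express a gene and less of its mRNA per cell cannot be told apart.

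Every processome mRNA fell in wild type cells on MMS. Together the 40 took 0.649% ± 0.0753 (SD, n = 3) of all counts in untreated wild type and 0.0816% ± 0.00134 after 1 h of MMS. The median log2 change was -3.52, an 11.5-fold loss, after TMM scaling between libraries. With total counts in place of TMM it was -2.97, and by limma on log2(TPM + 1) it was -2.86. After TMM scaling the members ranged from ENP2 (YGR145W), a WD-repeat assembly factor that fell 23.6-fold, to UTP22 (YGR090W), which fell 3.97-fold. All 40 were called lower by edgeR's quasi-likelihood test with Benjamini-Hochberg adjustment (adjusted p under 0.05), where 41.2% of the 5821 genes tested were called lower and the median over all of them was 0.03. For all 40, every treated library lay below every untreated one, as was so for 41.2% of all genes. Without untreated wild type replicate 3 and treated mbf1Δ replicate 1, all 40 were still called lower (median -3.46). The members' median fall was matched or exceeded by 169 of the 5821 genes (2.9%), and 11 of the 100 genes that fell furthest were members.

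**Figure D1:**
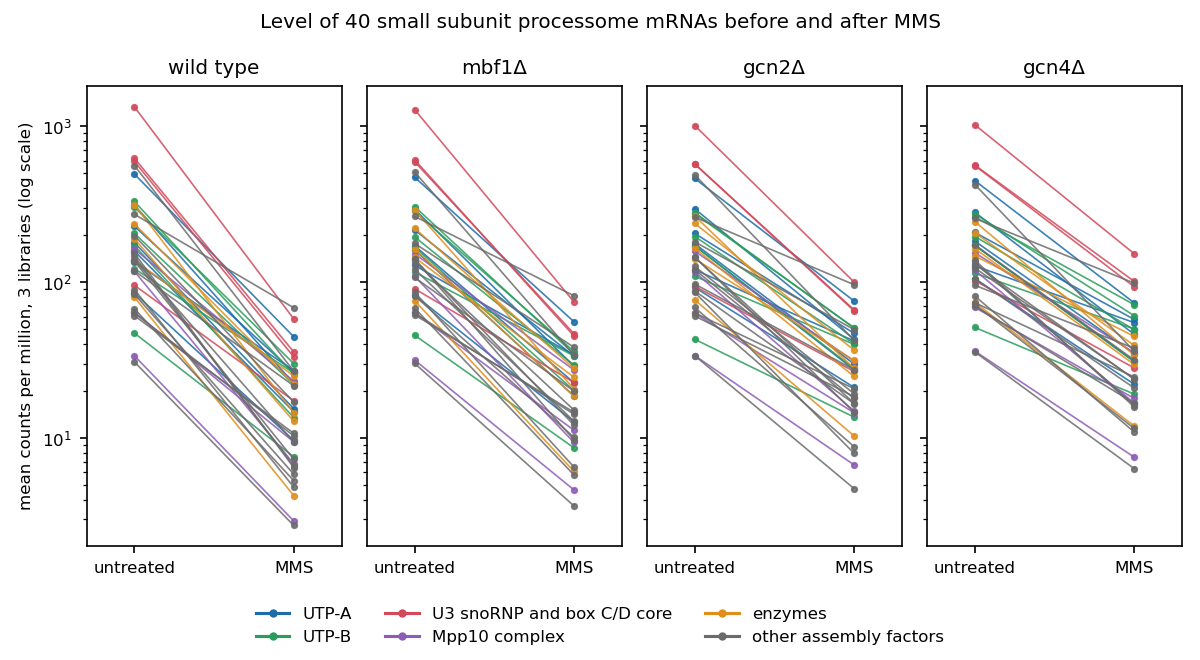
Mean level of each of the 40 mRNAs before and after MMS in the 4 strains, in TMM-scaled CPM (counts scaled to library size) on a log axis (mean of 3 libraries, lines coloured by role). All lines descend in each strain, and all 40 end higher in gcn2Δ and gcn4Δ than in wild type, as do 38 in mbf1Δ, the exceptions being EMG1 and UTP7.

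Levels are given below as counts scaled to library size after TMM normalization (CPM), and changes as log2 ratios from the edgeR fit with their standard error (SE). CPM is not divided by gene length, so it is compared only within a gene.

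The proteins of the U3 snoRNP and of the box C/D core, which U3 shares with the snoRNAs that guide ribose methylation, had the largest median fall of the role groups (-4.15, 4 members). NOP1 (YDL014W), the fibrillarin methyltransferase, was the most abundant member per length, at a mean of 936 TPM in untreated wild type against a median of 61.3 over the members. NOP1 had 1380, 1480 and 1120 CPM in the untreated wild type libraries and 60.3, 54.8 and 59 after MMS, a 22.9-fold fall (log2 -4.52, SE 0.175). NOP58 (YOR310C), a scaffold of the same particles, went from 590, 574 and 616 CPM to 32.9, 31.9 and 34.6 (log2 -4.16, SE 0.083), and its partner NOP56 (YLR197W) had a log2 change of -4.13 (SE 0.0867). RRP9 (YPR137W), which binds U3 itself and not the methylation guides, stood apart from these 3: it went from 94.2, 90.6 and 101 CPM to 16.6, 16.5 and 18.7, a 5.53-fold fall (log2 -2.47, SE 0.0727).

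Among the enzymes (median -3.89, 5 members) the steepest fall was that of KRE33 (YNL132W), an RNA cytidine acetyltransferase, from 326, 318 and 299 CPM to 15, 14.2 and 14.2 (log2 -4.44, SE 0.11). The helicases followed, with ROK1 (YGL171W) at -4.23 (SE 0.103) and ECM16 (YMR128W), also called Dhr1, which releases U3 from the precursor, at -3.89 (SE 0.099). BMS1 (YPL217C), a GTPase, had -3.41 (SE 0.0986). EMG1 (YLR186W), a methyltransferase that modifies a pseudouridine, fell least: 134, 133 and 149 CPM became 26.6, 23.9 and 24.4 (log2 -2.47, SE 0.0678). Even so, no treated library of EMG1 overlapped an untreated one.

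The UTP-A subunits had a median of -3.42 over 7 members. NAN1 (Utp17, YPL126W) was both the most abundant of them and the one that fell furthest, from 322, 293 and 316 CPM to 23.3, 21.9 and 22.1 (log2 -3.79, SE 0.0663). UTP4 (YDR324C), UTP10 (YJL109C), UTP8 (YGR128C), UTP9 (YHR196W) and UTP5 (YDR398W) had log2 changes from -3.54 to -3.11, and UTP15 (YMR093W) had -2.32 (SE 0.0647). UTP15 had the smallest fitted fall of its complex, and no subunit had treated and untreated libraries that overlapped.

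The UTP-B subunits, which bridge the start of the precursor and U3, had a median of -3.28 over 6 members. PWP2 (YCR057C) went from 341, 333 and 312 CPM to 25.3, 26 and 25.5 (log2 -3.68, SE 0.0826), and UTP21 (YLR409C), the most abundant subunit per length, from 303, 311 and 292 to 31.1, 29.7 and 29.3 (-3.33, SE 0.0644). UTP13 (YLR222C) had -3.66 and DIP2 (Utp12, YLR129W) -3.23, while UTP6 (YDR449C) had -2.64 and UTP18 (YJL069C), which recruits the nuclear exosome's helicase, had -2.23 (SE 0.0767). None of these libraries overlapped between treated and untreated cells.

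The Mpp10 complex, which helps U3 pair with the precursor, had a median of -3.16 over 4 members that split into a steep and a shallow pair. SAS10 (YDL153C) had 113, 107 and 131 CPM untreated and 6.43, 7.08 and 6.98 treated (log2 -4.10, SE 0.187), and IMP3 (YHR148W) had -3.50 (SE 0.134). MPP10 (YJR002W), the most abundant, had 153, 166 and 171 CPM untreated and 23.4, 22.8 and 23 treated (-2.83, SE 0.064), and IMP4 (YNL075W) had -2.76 (SE 0.0867). In each of them every treated library lay below every untreated one.

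The 14 other factors had a median of -3.75 and spanned the whole range. ENP2 had 154, 146 and 159 CPM untreated and 5.53, 6.97 and 6.85 treated (log2 -4.56, SE 0.104). UTP14 (YML093W), which activates Dhr1, had -4.46, UTP20 (YBL004W), a giant repeat protein, -4.38, NOP14 (YDL148C), a partner of Emg1, -4.23, KRR1 (YCL059C), a KH-domain protein, -4.22, ENP1 (YBR247C), which stays on the particle through nuclear export, -3.89, and BFR2 (YDR299W) -3.84. UTP23 (YOR004W), ESF1 (YDR365C) and UTP11 (YKL099C) lay between -3.66 and -3.47. SOF1 (YLL011W), RCL1 (YOL010W) and UTP7 (YER082C) fell by 2.62, 2.51 and 2.45. UTP22, part of a small complex with Rrp7 and casein kinase II, fell least of all 40, from 267, 256 and 292 CPM to 65.4, 67.7 and 72.1 (log2 -1.99, SE 0.0697), a change that 618 of the 5821 genes (10.6%) matched or exceeded.

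**Figure D2:**
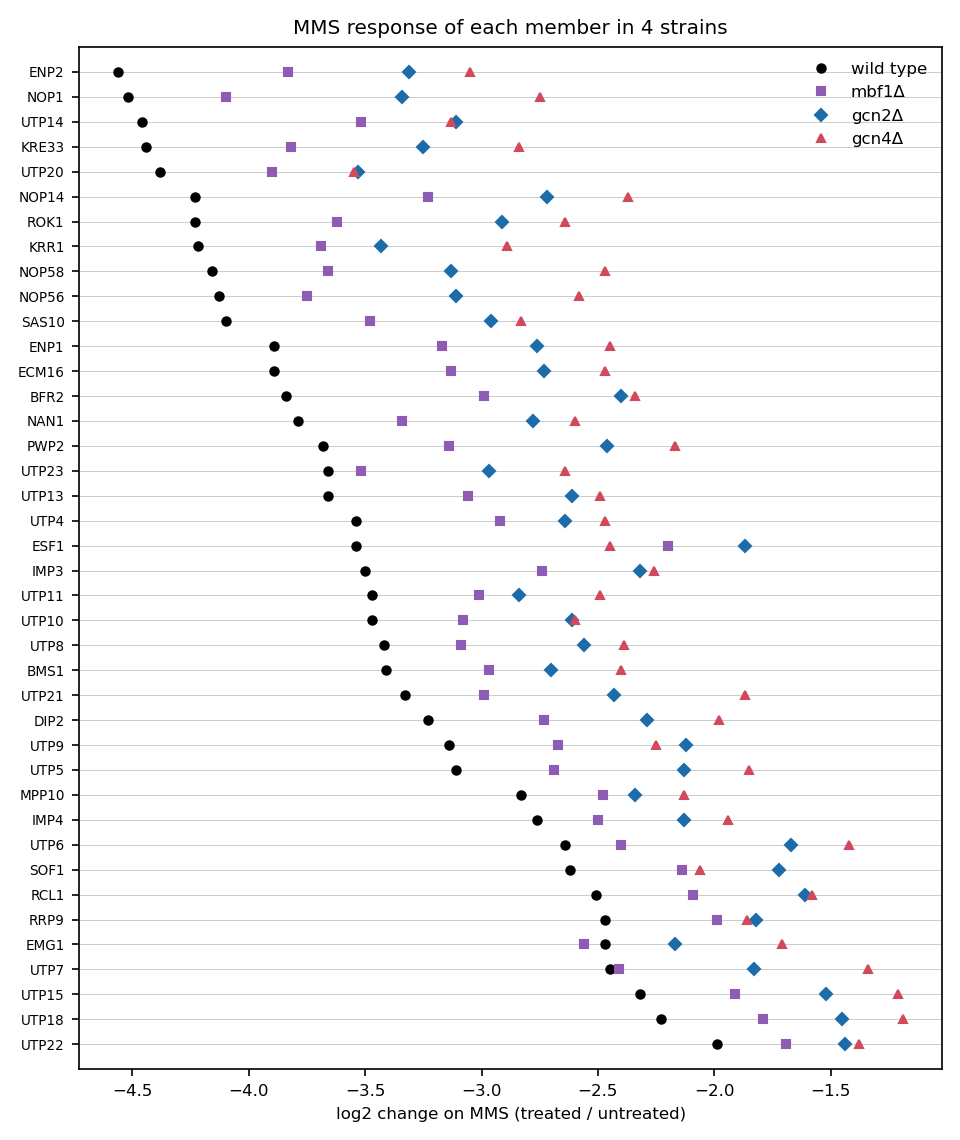
Log2 change on MMS of each member in the 4 strains, ordered by the wild type change. Wild type (black circles) lies furthest left in 39 of the 40 rows, the exception being EMG1, and gcn4Δ (red triangles) lies furthest right in 34.

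Neighbouring steps of ribosome assembly give the scale of these falls. Of 35 other small subunit processome factors, 34 fell (median -3.16). The lowest were DHR2, a helicase, with 80.7, 81.8 and 83.5 CPM untreated and 3.32, 1.51 and 2.41 treated, and NSR1, the nucleolin homolog, with 1180, 1210 and 1110 CPM untreated and 29.8, 29.1 and 41.6 treated, both at -5.13. The highest were the regulatory subunits of casein kinase II, an enzyme with many substrates outside the nucleolus: CKB1 fell by 0.14 (SE 0.0538), and CKB2 had -0.18 (SE 0.099) and was not called. Of 11 factors that act later on the small subunit, 9 fell and 1 rose (median -2.52). All 40 large subunit assembly factors listed (median -4.04) and all 8 RNA polymerase I genes (median -3.98) fell.

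The sequences upstream of the members were searched for letters of the known regulon elements, in the 300 bases before each start codon of the RefSeq R64 genome and on both strands. PAC was searched as GATGAG, RRPE as AAAAATTTT and the Gcn4 site as TGACTC. PAC letters were found upstream of 36 members (90%) against 18.5% of the 5889 genes with a window, and RRPE letters upstream of 25 (62.5%) against 7.47%. Both were found upstream of 23 (57.5%) against 3.74% of all genes. Large subunit assembly factors had similar shares, 87.5% with PAC and 77.5% with RRPE. The Gcn4 letters occurred upstream of 1 member, SOF1 (2.5%), against 7.9% of all genes. These matches describe letters, not binding.

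Stretches of 165 bases, from 230 to 66 bases before the start codon, are shown for 4 members to set the strongest falls beside a member with neither match. Capitals mark PAC and RRPE letters on either strand, so that PAC also reads as its complement. NOP1 (chrIV:427134-427298, plus strand) has RRPE letters on both strands, overlapping, followed by PAC. UTP14 (chrXIII:82860-83024, plus strand) has RRPE followed by PAC, with 1 more PAC match further upstream, and was added to the set after its value was seen. ENP2 (chrVII:781537-781701, plus strand), the member that fell furthest, has 3 overlapping PAC matches here, 1 more further upstream, and no RRPE. EMG1 (chrXII:523402-523566, plus strand) has neither. These 4 do not stand for all members. Most members with a match fell further than EMG1 (log2 -2.47 in wild type), but some did not. UTP18 with 2 PAC matches (-2.23), UTP15 with 2 RRPE matches (-2.32) and UTP7 with 1 PAC match (-2.45) fell less. RRP9 with 1 PAC match also had -2.47. UTP4, with RRPE alone, is not shown. Its match lies 34 to 26 bases before the start codon, outside the stretch.
NOP1: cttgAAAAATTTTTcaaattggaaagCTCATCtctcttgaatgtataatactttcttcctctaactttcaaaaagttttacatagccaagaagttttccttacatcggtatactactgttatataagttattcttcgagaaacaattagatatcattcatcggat
UTP14: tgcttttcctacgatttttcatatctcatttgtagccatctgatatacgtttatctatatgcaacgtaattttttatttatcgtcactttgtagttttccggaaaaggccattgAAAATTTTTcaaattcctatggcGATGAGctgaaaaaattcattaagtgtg
ENP2: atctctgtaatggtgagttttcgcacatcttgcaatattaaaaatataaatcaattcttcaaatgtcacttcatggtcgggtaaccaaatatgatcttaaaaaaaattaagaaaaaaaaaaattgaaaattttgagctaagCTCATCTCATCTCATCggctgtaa
EMG1: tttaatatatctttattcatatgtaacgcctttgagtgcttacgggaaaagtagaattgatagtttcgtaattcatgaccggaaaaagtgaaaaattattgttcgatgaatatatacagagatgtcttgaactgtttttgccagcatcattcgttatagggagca

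The 57 PAC matches of the members began 68 to 292 bases before the start codon (median 111), and the 30 RRPE matches 34 to 226 bases before it (median 134). The 23 members with both had a median wild type change of -3.84 and the 13 with PAC alone -3.42, and both classes spanned wide ranges (-4.52 to -2.64 and -4.56 to -2.23). UTP4 and UTP15, with RRPE alone, had -3.54 and -2.32. EMG1 and UTP22, with neither, had -2.47 and -1.99. These class medians are descriptions without a test.

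**Figure D3:**
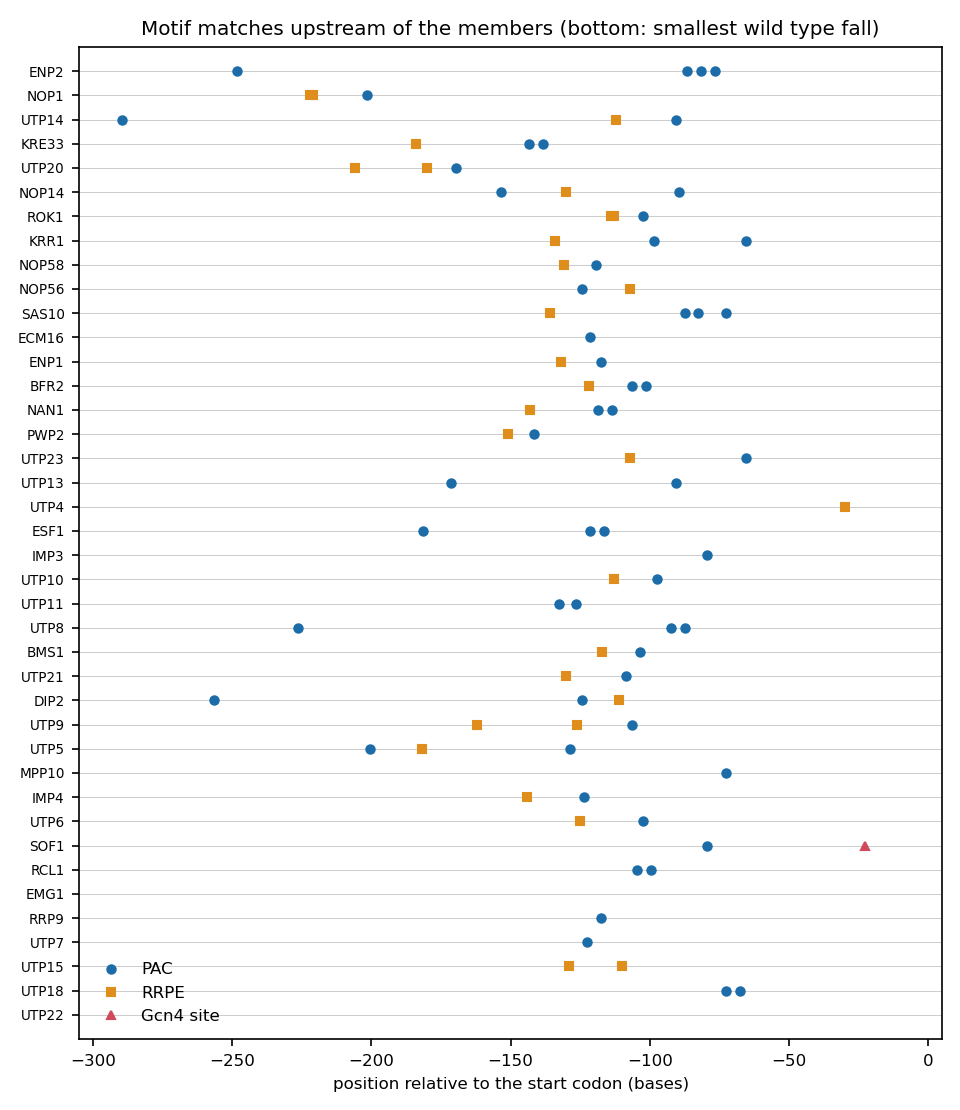
Position of each PAC (circles), RRPE (squares) and Gcn4 (triangle) letter match in the 300 bases upstream of the 40 start codons, with members ordered by the wild type change on MMS. Most PAC and RRPE matches lie between 68 and 226 bases upstream, and EMG1 and UTP22 have none.

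Before treatment the mutants differed little from wild type. The members' median level was 7.21 ± 0.07 log2 CPM (SD, n = 3) in wild type, 7.20 ± 0.07 in gcn2Δ, 7.17 ± 0.05 in mbf1Δ and 7.14 ± 0.01 in gcn4Δ. By edgeR's quasi-likelihood test, 0 members were called in gcn2Δ, where 0.309% of genes were called lower and 0.12% higher, and 0 in mbf1Δ, where 0.137% and 0.0172% were. At an unadjusted p under 0.05 these counts were 11 members in gcn2Δ, all lower, where 13.3% of all genes were lower and 12.7% higher, and 1 lower in mbf1Δ, where 1.56% were lower and 3.16% higher. DESeq2 called 1 member lower in gcn2Δ and 0 in mbf1Δ, and limma on log2(TPM + 1) called 3 higher in gcn2Δ and 0 in mbf1Δ. On log2(TPM + 1) the median difference of untreated gcn2Δ from wild type was 0.33 over all genes and 0.26 over the members. In gcn2Δ, 4 members were called lower without treated mbf1Δ replicate 1, 2 without untreated wild type replicate 3, and 9 lower and 1 higher without both. The share of all genes called was not counted under these alternatives, so their counts are not read as a result about the members.

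In untreated gcn4Δ 4 members were called lower and 2 higher, against 10.1% and 9.19% of all genes. UTP20 had 577, 547 and 551 CPM in wild type and 386, 440 and 439 in gcn4Δ (log2 -0.40, SE 0.081). KRE33, PWP2 and UTP21 had -0.36, -0.26 and -0.21. BFR2 had 79.2, 77.7 and 93.7 CPM in wild type and 103, 106 and 107 in gcn4Δ (0.33, SE 0.0953), and RCL1, a cyclase-like protein, had 0.28 (SE 0.0841). The split between directions depends on the scale. On log2(TPM + 1), without scaling between libraries, 24 members were called higher and 0 lower in untreated gcn4Δ, as were 71.3% and 1.34% of all genes, whose median shifted by 0.42. The count lower was 2 without untreated wild type replicate 1 or 2 or untreated gcn4Δ replicate 3, and 10 without treated mbf1Δ replicate 1. The count higher was 0 without untreated wild type replicate 1 or 2 or untreated gcn4Δ replicate 2 or 3. Without both libraries that stood apart 7 were lower and 5 higher. The ribosomal RNA share differs between these same groups (14.4% and 1.28%), and with it as a covariate 1 member was lower and 1 higher. Its part in the result was not tested.

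MMS lowered all 40 members in each mutant too, but less far. The median change was -2.59 in gcn2Δ (6.01-fold), -2.39 in gcn4Δ (5.26-fold) and -3.0 in mbf1Δ (8-fold). All 40 were called lower in each, where 40.4%, 42.6% and 40.1% of all genes were, and no treated library of a member overlapped an untreated one of its strain. All treated libraries lay below all untreated ones in 40.9% of all genes in gcn2Δ, 45.0% in gcn4Δ and 39.1% in mbf1Δ. Expressed as a percentage of the wild type log2 change, the members' median change was 72.5% in gcn2Δ, 67.4% in gcn4Δ and 85.5% in mbf1Δ. The share of counts taken by the 40 after MMS was 0.174% ± 0.00808 in gcn2Δ, 0.204% ± 0.00777 in gcn4Δ and 0.12% ± 0.0207 in mbf1Δ (SD, n = 3 each), against 0.0816% in wild type. By fitted value, the order wild type, mbf1Δ, gcn2Δ, gcn4Δ, from the largest fall to the smallest, held in 33 of the 40 members. The members share the same libraries, so they are not independent counts of this order. The step from mbf1Δ to gcn2Δ was called in 22 members (4.04% of all genes). That from gcn2Δ to gcn4Δ was called in 14 (18.3%), and 2 were called the other way (14.4%). The counts of 22 and 14 were smaller with total counts or on TPM. All 3 mutants were compared with the same wild type libraries.

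In gcn2Δ the response of every member differed from wild type. All 40 interactions (the mutant's response minus that of wild type) were positive and called, with a median of 0.96, against 18.6% of all genes called higher. The count was 31 by limma on log2(TPM + 1), 32 on log2(TPM + 0.1), 38 with total counts in place of TMM and 39 with the ribosomal RNA share as a covariate. The largest was that of ESF1, a nucleolar factor: it had 185, 163 and 195 CPM in untreated gcn2Δ and 50.5, 48.8 and 49.4 after MMS, where treated wild type had 18.1, 16.8 and 16.1 (interaction 1.67, SE 0.155, adjusted p = 1.91e-08). Treated gcn2Δ libraries thus lay far above treated wild type ones, and ESF1 kept 27.4% of its untreated level in gcn2Δ against 8.59% in wild type. NOP14 followed, with 118, 116 and 144 CPM before and 18.5, 18.2 and 20.9 after MMS in gcn2Δ against 7.89, 6.87 and 7.11 in treated wild type (1.51, SE 0.146).

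BFR2 in gcn2Δ went from 86.7, 83.1 and 93.3 CPM to 16.5, 16.2 and 17.2, against 5.74, 5.88 and 5.93 in treated wild type (1.44, SE 0.16). At the other end, EMG1 went from 138, 147 and 140 CPM to 31.3, 32 and 31, against 26.6, 23.9 and 24.4 in treated wild type (0.31, SE 0.0914, adjusted p = 0.0117). EMG1, MPP10 and UTP22 were the 3 lowest of the 40, although their treated libraries still did not overlap those of wild type. MPP10 in gcn2Δ went from 156, 149 and 168 CPM to 31.4, 30.7 and 31.3 (0.48, SE 0.0856). UTP22 went from 251, 261 and 271 to 94.1, 92.5 and 102 (0.55, SE 0.095). By role, the median interaction ran from 0.89 for UTP-A and for the Mpp10 complex to 1.16 for the enzymes. The difference was not particular to the processome. In gcn2Δ the interaction was called higher in 37 of 40 large subunit assembly factors (median 0.95) and 6 of 8 RNA polymerase I genes (median 0.75).

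In gcn4Δ all 40 interactions were again positive and called (median 1.19, 18.8% of all genes called higher). Large subunit assembly factors were called higher in 39 of 40 (median 1.18) and RNA polymerase I genes in 7 of 8 (median 1.13). NOP14 had 118, 131 and 120 CPM untreated and 23.6, 22.9 and 25.1 after MMS (interaction 1.86, SE 0.144, adjusted p = 8.58e-10), and treated gcn4Δ libraries lay 3.29-fold above treated wild type. NOP1 went from 1110, 1030 and 919 CPM to 149, 153 and 152 (1.77, SE 0.216), and NOP58 from 575, 546 and 567 to 101, 96.4 and 107 (1.69, SE 0.105). With NOP56 at 1.55, these 3 shared proteins of the box C/D particles were among the 6 highest of the 40. For NOP1, all untreated gcn4Δ libraries lay below those of untreated wild type. That difference was not called, but it enters the interaction. RRP9, which marks U3 itself, was among the lowest: it went from 102, 102 and 103 CPM to 28.7, 26.6 and 29 (0.60, SE 0.0968).

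SOF1, a WD-repeat protein, had the smallest fitted interaction in gcn4Δ, close to those of RRP9 and UTP22. It is the sole member with Gcn4 letters upstream (25 to 20 bases before the start codon), and a link was not tested. It went from 71.4, 67.8 and 70.5 CPM to 18.2, 16.6 and 15.4, with 10.4, 10.9 and 9.52 in treated wild type (0.56, SE 0.122, adjusted p = 0.00112). UTP22 went from 248, 254 and 268 CPM to 106, 90.4 and 98.5 (0.61, SE 0.0948). All treated gcn4Δ libraries of both genes lay above those of wild type. The ribosomal RNA share moved with this strain, and with it as a covariate the interaction was called in 37 of the 40 members. Its part in the result was not tested.

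**Figure D4:**
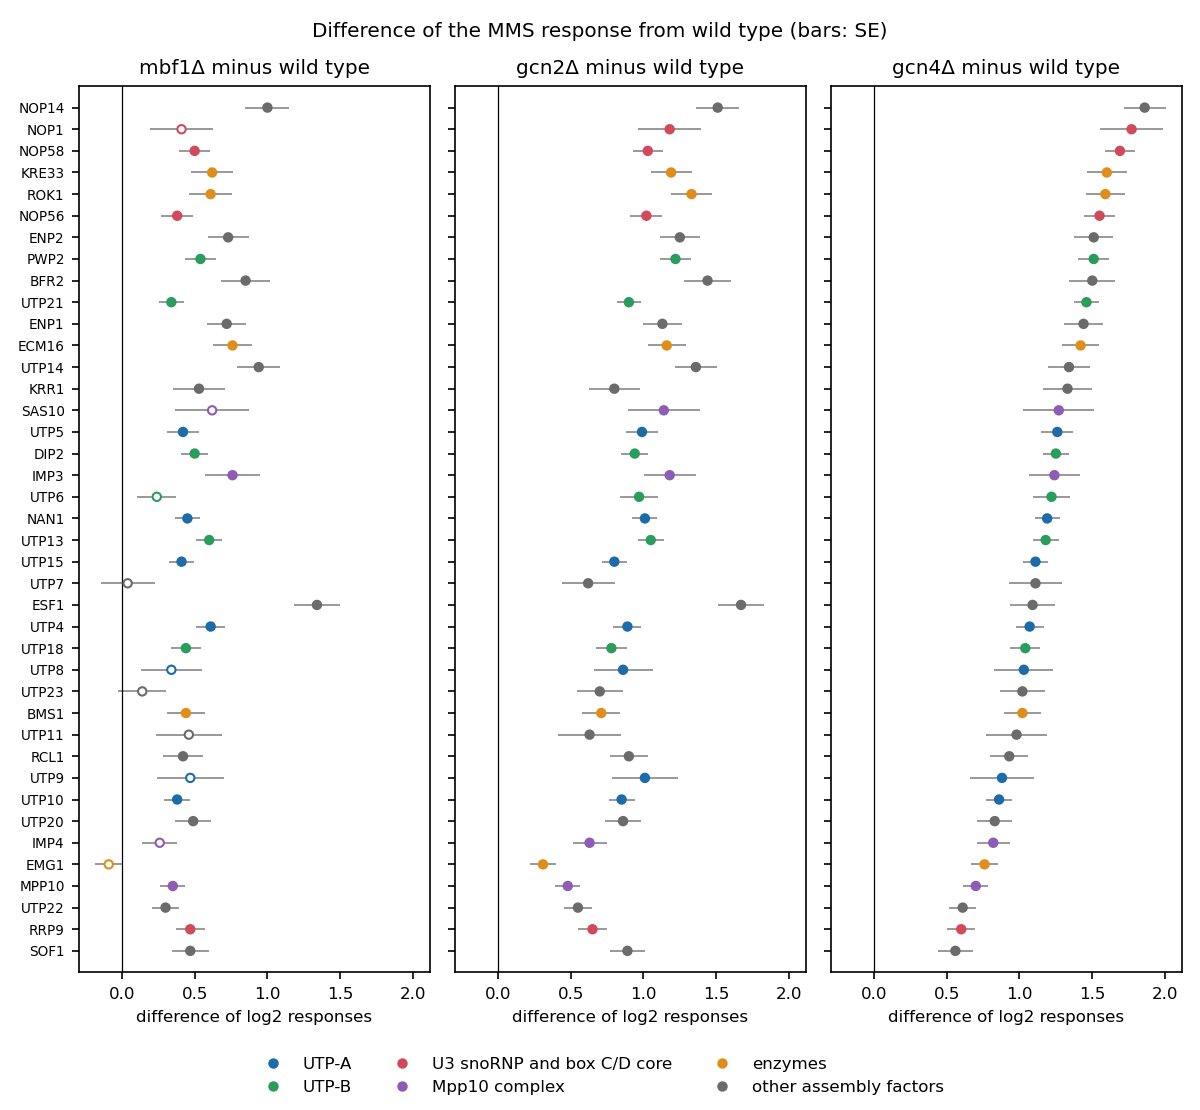
Difference of each member's log2 response from that of wild type in mbf1Δ, gcn2Δ and gcn4Δ, with its standard error, ordered by the gcn4Δ value and coloured by role. Filled points were called at an adjusted p under 0.05 (40 in gcn2Δ and gcn4Δ, 30 in mbf1Δ), and EMG1 in mbf1Δ is the sole point below 0.

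In mbf1Δ the differences were smaller. The interaction was called higher in 30 of the 40 members (median 0.47, 11.6% of all genes called higher), and in 20 by limma on log2(TPM + 1). Without treated mbf1Δ replicate 1, which stood apart, 29 were called (median 0.49), without untreated wild type replicate 3 26 (median 0.44), and without both 26 (median 0.48). The members' summed TPM, not scaled between libraries, was 869, 682 and 587 in the treated mbf1Δ libraries, the highest being replicate 1. Their median TMM-scaled CPM in the same libraries was 20.3, 22.6 and 19.0, the highest being replicate 2. ESF1 again led: it had 167, 183 and 181 CPM in untreated mbf1Δ and 47.3, 36.5 and 30.8 after MMS (1.34, SE 0.156, adjusted p = 1.16e-06). NOP14 went from 110, 135 and 120 CPM to 14.7, 12 and 11.8 (1.00, SE 0.151), and UTP14 from 129, 148 and 145 to 13.8, 12.2 and 10.2, where treated wild type had 6.5, 6.76 and 6.52 (0.94, SE 0.147). For each of these 3 genes all treated mbf1Δ libraries lay above all treated wild type libraries. Outside the members, the mbf1Δ interaction was called higher in 29 of 40 large subunit assembly factors (median 0.49) and 4 of 8 RNA polymerase I genes (median 0.38).

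The 10 members not called in mbf1Δ were EMG1, UTP7, UTP23, UTP6, IMP4, UTP8, NOP1, UTP11, UTP9 and SAS10. EMG1 went from 146, 144 and 142 CPM to 22.6, 27.2 and 23.7, a range that overlapped that of treated wild type (-0.09, SE 0.093, adjusted p = 0.541). UTP7 went from 87.8, 114 and 118 CPM to 18.8, 22 and 19.2, against 22.5, 20.1 and 22.1 in treated wild type (0.04, SE 0.186). UTP23, a nuclease-like protein bound to a snoRNA, went from 61.6, 73.9 and 68.3 CPM to 6.98, 5.85 and 4.53, against 5.67, 5.51 and 4.76 (0.14, SE 0.164). In these 3 genes treated mbf1Δ and wild type libraries overlapped. SAS10 had a larger value but a wide spread, with 14.4, 7.51 and 6.17 CPM in treated mbf1Δ (0.62, SE 0.256, adjusted p = 0.0832). The high library, replicate 1, had 8.85% of its counts in the ribosomal RNA locus, against 17.3% and 17.7% in the others.

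**Figure D5:**
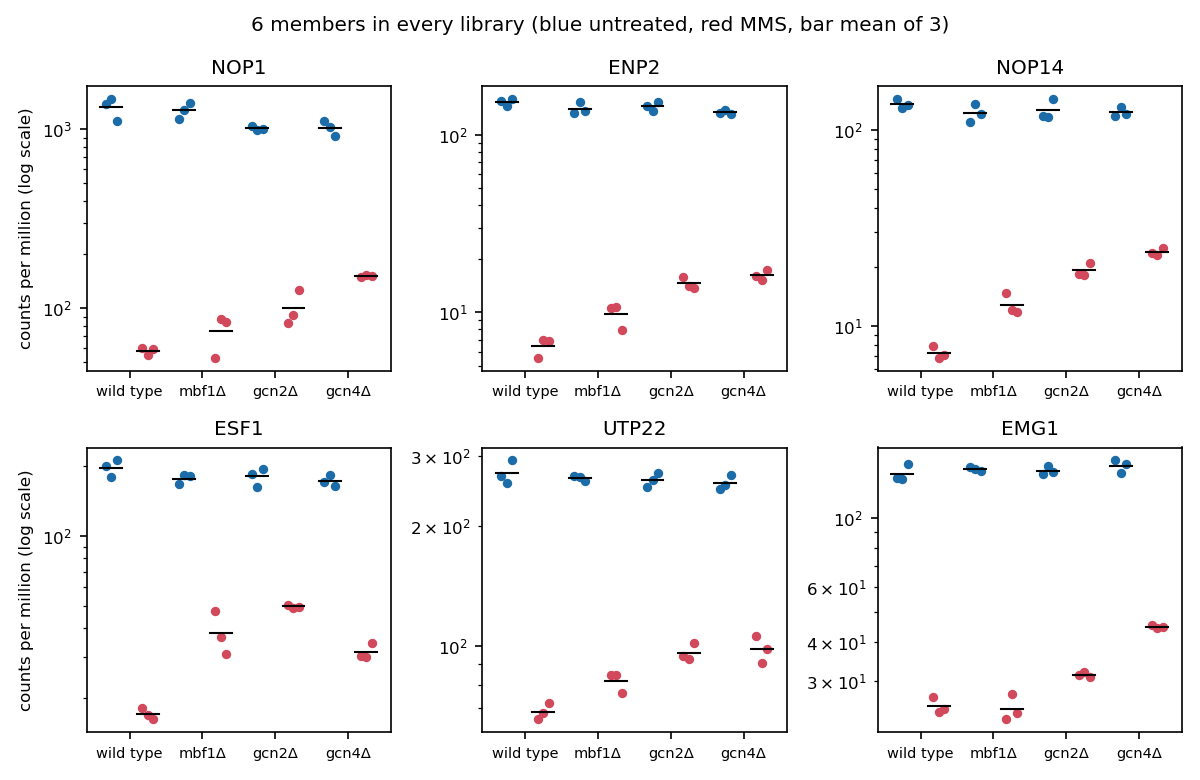
CPM (log axis) of 6 members in every library, untreated in blue and after MMS in red, with the mean of 3 as a bar. Treated libraries of NOP1, ENP2, NOP14 and UTP22 rise in mean from wild type through mbf1Δ and gcn2Δ to gcn4Δ, ESF1 is highest in gcn2Δ, and EMG1 overlaps between wild type and mbf1Δ.

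Compared directly after MMS, with the untreated libraries set aside, all 40 members were higher in gcn2Δ than in wild type (median 0.86, 31.2% of all genes called higher) and all 40 in gcn4Δ (median 1.19, 22.5%). In mbf1Δ 31 were (median 0.42, 21.6%). In gcn2Δ and gcn4Δ no treated library of any member overlapped those of wild type, and in mbf1Δ this held for 31 members. All libraries lay above those of wild type in 32.9%, 32.8% and 24.3% of all genes in gcn2Δ, gcn4Δ and mbf1Δ. With the ribosomal RNA share as a covariate, 23 members were called higher in treated gcn4Δ, with a median of 1.08.

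The mutants also differed from each other. In gcn4Δ the response was higher than in gcn2Δ in 14 members and lower in 2 (median 0.26, 18.3% and 14.4% of all genes called). The 2 lower were ESF1 (-0.59, SE 0.147), with 30.2, 29.9 and 34.6 CPM in treated gcn4Δ against 50.5, 48.8 and 49.4 in treated gcn2Δ, and SOF1 (-0.34, SE 0.115). NOP58 had the largest difference the other way (0.66, SE 0.102), with NOP1, UTP21, NOP56 and KRR1 from 0.59 to 0.53. These counts were unstable: 3 members were higher with total counts in place of TMM and 5 by limma on log2(TPM + 1), 7 without untreated gcn2Δ replicate 3 or treated gcn2Δ replicate 1, and 8 without untreated gcn4Δ replicate 3. The count lower was 1 without untreated replicate 1 or 2 or treated replicate 1 or 2 of gcn2Δ, or without untreated replicate 1 or 3 or treated replicate 2 or 3 of gcn4Δ.

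In mbf1Δ the response was lower than in gcn2Δ, that is, the fall was larger, in 22 members (median -0.46, 4.04% of all genes called lower), led by NOP1 (-0.77, SE 0.214), UTP6 (-0.74, SE 0.126) and ROK1 (-0.72, SE 0.129). All 6 UTP-B subunits were among the 22 and none of the 4 Mpp10 complex proteins was, but their median differences lay close (-0.5 and -0.4). The enzymes, also at -0.4, had 3 of 5 called. The count was 8 with total counts in place of TMM, 2 by limma on log2(TPM + 1) and 14 without untreated mbf1Δ replicate 2. Against gcn4Δ the mbf1Δ response was lower in 36 members (median -0.68, 22.8% of all genes called lower), led by NOP1 (-1.35, SE 0.214) and NOP58 (-1.19, SE 0.103). UTP9, RRP9, SOF1 and ESF1 were the 4 not called. This count was 20 with total counts and 19 by limma on log2(TPM + 1).

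The authors' deposited tables give a log2 value per gene for each deletion strain. Their headers do not say which groups the value compares. It is set here beside the interactions because its values lay near theirs, so its meaning is inferred. In the authors' deposited table for gcn2Δ all 40 members had a value above 0 at an adjusted p under 0.05 (median 0.91, 20.7% of genes), in that for gcn4Δ all 40 (median 1.19, 20.9%) and in that for mbf1Δ 30 (median 0.38, 13.1%). ESF1 had 1.62, 1.07 and 1.28 in the authors' deposited tables for gcn2Δ, gcn4Δ and mbf1Δ, and EMG1 had 0.28, 0.72 and -0.11.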

How the data were processed

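RNA was poly-A selected, reverse transcribed from random hexamers and sequenced as read pairs, per the labels' protocols. The authors used FastQC 0.11.9, fastp, Salmon 1.10.1, DESeq2 1.38.3 and the R64 genome, per the submitters' processing notes. The deposited value fitted here is Salmon's estimated count per gene. The deposited files also give TPM and gene lengths in bases. Per the file headers, the authors' comparison tables list a log2 fold change and its SE, a p-value before and after adjustment, and a mean over libraries, used here as a score. The headers name no contrast.

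The members, role groups and comparison lists were chosen with earlier results of these data known. Estimated counts were rounded, and edgeR 4.0.16 under R 4.3.3 was fitted to all 24 libraries (one coefficient per group, TMM, filterByExpr with a minimum count of 10, 5824 genes, 16 residual degrees of freedom). GCN2, GCN4 and MBF1 were left out of counts and adjustment, which left 5821 genes and 16 contrasts. SE is the error the test statistic implies. The biological coefficient of variation was 8.49%. Total counts per library, 13518147 to 28366559, set the counting precision. Replicates of a group differed by more than counting noise (chi-square per gene of at least 3.92). The fit was tested on simulated data. Values in every library are given for the most abundant and the most changed member of each role group and for the 3 highest and 3 lowest of each interaction with wild type, and other genes were chosen after their values were seen. Alternatives were other scalings, filters, limma 3.58.1 on log2 TPM, DESeq2 1.42.0, a ribosomal RNA covariate, a replicate block and leaving out each library, or, chosen after seeing the data, both libraries that stood apart. Copies were sought with blastn 2.17.0 (at least 90% identity over 50% of the length). The labels give no strand, so reads from overlapping genes could not be told apart.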

Additional observations from a re-analysis of the deposited data

Results flagged for a closer look

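The MMS response of the processome mRNAs differed between strains by the interaction test in edgeR. Against wild type it was higher in 40 members in gcn2Δ, 40 in gcn4Δ and 30 in mbf1Δ. Of all genes, 18.6%, 18.8% and 11.6% were called higher. By limma on log2(TPM + 1) the counts of members were 31, 39 and 20. In gcn2Δ the difference on the log2 scale was 1.67 for ESF1, 1.51 for NOP14 and 1.44 for BFR2, and 0.55 for UTP22, 0.48 for MPP10 and 0.31 for EMG1. In gcn4Δ it was 1.86 for NOP14, 1.77 for NOP1 and 1.69 for NOP58, and 0.61 for UTP22, 0.60 for RRP9 and 0.56 for SOF1. In mbf1Δ it was 1.34 for ESF1, 1.00 for NOP14 and 0.94 for UTP14.

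Between mutants, the response in gcn4Δ was higher than in gcn2Δ in 14 members (18.3% of all genes). It was lower in 2, ESF1 and SOF1 (14.4%). The response in mbf1Δ was lower than in gcn2Δ in 22 members (4.04% of all genes) and lower than in gcn4Δ in 36 (22.8%). These counts between mutants were smaller with total counts or on TPM. No test of a single outlying library was run within the groups of 3.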

How the results depend on the processing

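Of 5600 values for named members (log2 changes in the wild type response and in the interactions under each alternative), 5505 stayed on the same side of the threshold. A call was lost in 84 and gained in 11, and 0 changed direction with a call in either fit. Changes of direction without a call were not counted. Of the alternatives, 24 left out 1 library, often one outside the comparison, and 11 were of other kinds. By limma on log2(TPM + 1), 11 members lost a call in the mbf1Δ interaction and 9 in that of gcn2Δ. With total counts, or with limma on TPM (another model as well as another scale), the median of all genes moved by 0.48 to 0.66 in the MMS responses, and by up to 0.44 between strains of the same treatment. With total counts only, limma on log2(TPM + 1) and limma on log2(TPM + 0.1), in that order, the members' median MMS response was -2.97, -2.86 and -2.98 (wild type), -1.99, -2.01 and -2.07 (gcn2Δ), -1.92, -1.75 and -1.80 (gcn4Δ) or -2.34, -2.23 and -2.34 (mbf1Δ). The median of treated mutant against treated wild type was 1.13, 1.1 and 1.17 for gcn2Δ, 1.43, 1.46 and 1.62 for gcn4Δ, and 0.59, 0.53 and 0.57 for mbf1Δ. The untreated medians were 0.19, 0.26 and 0.26 for gcn2Δ, 0.24, 0.33 and 0.33 for gcn4Δ, and 0.01, 0.00 and 0.00 for mbf1Δ. In untreated gcn4Δ these scales called 18, 24 and 23 members higher and 0 lower, and both TPM scales called 3 higher in untreated gcn2Δ. The interaction median was 1.11 in gcn4Δ and 0.57 in mbf1Δ with total counts, 0.88 in gcn2Δ and 1.08 in gcn4Δ on log2(TPM + 1), and 0.56 in mbf1Δ on log2(TPM + 0.1). For gcn4Δ against gcn2Δ these scales called 3, 5 and 4 members higher and 1, 0 and 0 lower, and the median was 0.15 with total counts. For mbf1Δ against gcn2Δ they called 8, 2 and 2 lower, with TPM medians of -0.31 and -0.34. For mbf1Δ against gcn4Δ they called 20, 19 and 19 lower, with medians of -0.49 with total counts and -0.58 on log2(TPM + 1). DESeq2 called 8 members lower in untreated gcn4Δ (12.8% of genes) and 1 in untreated gcn2Δ. With the ribosomal RNA share as a covariate, untreated gcn4Δ had 1 member lower and 1 higher, and treated gcn4Δ had 23 higher (median 1.08).

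Leaving out 1 library at a time kept 40 members lower in each MMS response, with medians from -3.60 to -3.45 (wild type) and from -2.42 to -2.30 (gcn4Δ). The count of interactions with wild type ranged from 39 to 40 for gcn2Δ, stayed at 40 for gcn4Δ, and ranged from 26 to 33 for mbf1Δ, where the median ran from 0.43 to 0.55. Between mutants it ranged from 7 to 20 higher and 1 to 2 lower (gcn4Δ against gcn2Δ), 14 to 29 lower (mbf1Δ against gcn2Δ), and 34 to 37 lower and 0 to 1 higher (mbf1Δ against gcn4Δ). Untreated counts ranged from 0 to 4 lower in gcn2Δ, and from 2 to 10 lower and 0 to 3 higher in gcn4Δ. Leaving out both untreated wild type replicate 3 and treated mbf1Δ replicate 1, an alternative chosen after seeing the data, gave 9 members lower and 1 higher in untreated gcn2Δ and 7 lower and 5 higher in untreated gcn4Δ, and left the other counts of members within 1.5 times. Same-numbered libraries did not deviate together (median correlation -0.01 over 84 pairs, 20 of them over 0.1), so the numbers were not taken as pairing. With the replicate number as a block, gcn4Δ against gcn2Δ had 12 members higher in place of 14, and the counts for the wild type response and for each interaction with wild type did not change (40, 40, 40 and 30). Low-count filters, other size factors and leaving out the ribosomal RNA rows left every count of members within 1.5 times. The cause of these shifts was not tested. The lowest member count in a library was 31, which bounds the counting precision.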
